A study of Mus musculus with 13 samples.

Results

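Genes that set the threshold for cell death were described in thymocytes of Sox4 conditional knockout (cKO) and wild type (WT) mice. The set was listed by gene name, with earlier results of these data known when it was chosen. It holds the antiapoptotic genes Bcl2, Bcl2l1 and Mcl1, the BH3-only genes Bcl2l11, Bbc3 and Pmaip1, the effectors Bax and Bak1, the apoptosome gene Apaf1 and the death receptor Fas, 10 genes in all. Of these, 9 were among the 19752 genes with a probe set that names 1 gene, each with 1 such probe set, and Bax was not analysed here. RNA was hybridised to 13 microarrays, 1 per sample, from cells sorted from 2-week-old mice. V2 cells are immature γδ thymocytes, sorted as positive for the γδ T cell receptor and its Vγ2 chain, high for HSA and negative for CD4 and CD8. DP cells are CD4 and CD8 double positive thymocytes, which make up most of the αβ lineage in the thymus. The labels give 4 V2 cKO, 4 V2 WT, 3 DP cKO and 2 DP WT arrays. The driver of the Cre recombinase that deletes Sox4 is not named in the sources used here, the V2 samples are labelled as mixed in sex, and whether replicates were separate animals or pools is not stated. The p-values below therefore rest on the spread among samples, part or all of which may be technical.

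The Bcl2 family decides whether the outer mitochondrial membrane is breached. Bcl2, Bcl2l1 (which encodes Bcl-xL) and Mcl1 hold the effectors Bax and Bak1 in check, the BH3-only proteins such as Bim (Bcl2l11), Puma (Bbc3) and Noxa (Pmaip1) release them, and the freed cytochrome c joins Apaf1 to activate caspases. Fas starts a separate route at the cell surface, through the adaptor Fadd and the protease caspase encoded by Casp8. In the mouse thymus, cells that receive interleukin-7 are known for Bcl2, DP thymocytes are known to rely on Bcl-xL and to carry Fas, and Bim is needed for the deletion of self-reactive thymocytes.

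Values are RMA intensities, given as log2 throughout. The array medians were 122.2 to 137.2 on the linear scale, and precision is limited by how few arrays there are. Sox4, a transcription factor gene with 1 probe set here, was at 8.07, 9.60, 8.11 and 8.23 in V2 cKO arrays, against 8.71, 8.64 and 9.68 in V2 WT arrays. In DP arrays Sox4 was at 8.74 and 8.68 in cKO, against 9.37 and 8.55 in WT, so neither pair of groups was separated by it, and V2 cKO replicate 5 of the V2imm set, at 9.60, lay above both WT arrays of its set. This goes against its label, which is kept here as the sample is labelled, and where the probes of Sox4 lie relative to the deleted stretch was not examined. The array labelled DP cKO replicate 5 had the DP markers Cd4 at 7.47 and Rag1 at 6.87 and the γδ markers Sox13 at 11.49 and Etv5 at 12.01, and the array labelled V2 WT replicate 5 of the immV2 title set had Cd4 at 12.65, Rag1 at 13.02, Sox13 at 7.73 and Etv5 at 6.60. Both carried the markers of the other population, so they are shown apart and the groups below hold 4 V2 cKO, 3 V2 WT, 2 DP cKO and 2 DP WT arrays, 11 in all. In these 11 arrays the 5 DP markers summed to linear intensities of 959 to 1312 in V2 cKO and 861 to 966 in V2 WT, against 31128 to 34440 in DP cKO and 29676 to 34786 in DP WT. The 5 γδ markers summed to 5129 to 9497 in V2 cKO and 11980 to 12905 in V2 WT, against 664 to 681 in DP cKO and 574 to 577 in DP WT. V2 titles are written in 2 ways, V2imm and immV2, with 2 arrays of each genotype, and the labels do not say whether these mark a batch.

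The sequences just upstream of annotated starts of the 3 genes that separated the populations are shown first. Each line gives the 250 bases before a RefSeq transcription start in the mouse build GRCm38.p6, 5′ to 3′ on the gene's own strand. Bcl2 lies on chromosome 1 (chr1:106538176-106714290, minus strand) with its window at chr1:106714291-106714540. Bcl2l1 lies on chromosome 2 (chr2:152758732-152833803, minus strand) and has 3 annotated starts. The window printed, at chr2:152828490-152828739, belongs to the most downstream of these starts and lies within the span of the gene. It is printed since it was the only window of these 3 genes with a motif match. Fas lies on chromosome 19 (chr19:34290647-34327775, plus strand) with its window at chr19:34290409-34290658. Capitals mark a motif match on either strand.
Bcl2: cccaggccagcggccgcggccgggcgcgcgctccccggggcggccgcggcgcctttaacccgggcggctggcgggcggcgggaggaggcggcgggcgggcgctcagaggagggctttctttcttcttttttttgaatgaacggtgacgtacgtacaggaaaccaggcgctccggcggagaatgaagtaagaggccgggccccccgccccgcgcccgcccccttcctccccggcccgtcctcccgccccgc
Bcl2l1: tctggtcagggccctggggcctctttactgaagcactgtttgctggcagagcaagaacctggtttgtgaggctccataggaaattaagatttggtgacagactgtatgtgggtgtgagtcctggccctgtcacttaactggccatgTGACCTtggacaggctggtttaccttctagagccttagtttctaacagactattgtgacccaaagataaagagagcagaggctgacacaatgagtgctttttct
Fas: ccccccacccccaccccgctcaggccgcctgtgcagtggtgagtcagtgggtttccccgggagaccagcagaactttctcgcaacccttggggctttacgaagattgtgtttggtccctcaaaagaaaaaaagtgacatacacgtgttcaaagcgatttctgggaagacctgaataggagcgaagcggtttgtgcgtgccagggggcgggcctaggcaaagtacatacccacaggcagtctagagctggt
The Bcl2 window was 74.8% G and C with 36 CpG pairs, and the median over 32851 mouse promoter windows of this length was 52.4% with 6 CpG pairs. The Fas window had 56.4% and 11 CpG pairs, and the printed Bcl2l1 window had 48.4% and none, while those of its other starts had 11 and 12. Of 4 motifs searched on both strands, AACAAT of SOX factors was found in 9.42% of all windows, AGGTCA of ROR nuclear receptors in 14%, TGTTTAC of FOXO factors in 3.17% and CAGCTG, an E-box, in 13%. The printed Bcl2l1 window held the reverse complement of the ROR letters, TGACCT, at bases -104 to -99 from the start. The Bcl2 and Fas windows held none of the 4, and overlaps between motifs do not arise in these windows. Among the 8 members with a window, Bcl2l11 held a FOXO match before its first start and a SOX match before the second, and Bbc3 held a FOXO and a SOX match before its second start. These are matches of letters in short windows, and binding was not measured.

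The first comparison set V2 against DP cells. V2 cells had more Bcl2 and less Bcl2l1 and Fas RNA signal than DP cells, each by 4-fold or more, in WT and in cKO mice alike. The other 6 measured members, Mcl1, Bcl2l11, Bbc3, Pmaip1, Bak1 and Apaf1, passed the threshold in neither genotype. Of 9 members, 3 were called between V2 WT and DP WT, 1 higher and 2 lower, at an adjusted p under 0.05 (limma, Benjamini-Hochberg over all genes), against a background of 4.87% of genes called, 3.2% higher and 1.67% lower. Between V2 cKO and DP cKO the same 3 members were called in the same directions, against 5.45% of genes called, 3.5% higher and 1.94% lower. These 2 comparisons share no array, although 1 fit gave them a common estimate of the spread. Leaving out 1 array in turn moved the number of genes called from 962 to between 477 and 1581 in WT and from 1076 to between 480 and 1632 in cKO, and the 3 members stayed called each time. In sorted bulk RNA, fewer cells of a type and less RNA per cell cannot be told apart.

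Bcl2, which opposes the mitochondrial route, was at 10.24, 10.88, 10.98 and 11.21 in V2 cKO arrays and at 11.01, 10.81 and 10.90 in V2 WT arrays. It was at 8.10 and 8.34 in DP cKO arrays and at 7.92 and 8.55 in DP WT arrays. All 7 V2 arrays lay above all 4 DP arrays, and within each population the genotypes overlapped. The means were 10.83 ± 0.42 in V2 cKO, 10.91 ± 0.10 in V2 WT, 8.22 ± 0.17 in DP cKO and 8.24 ± 0.44 in DP WT (SD). The V2 minus DP difference was 2.61 (SE 0.24, adjusted p = 2.13e-05, limma) in cKO, or 6.09-fold, and 2.73 (SE 0.26, adjusted p = 2.61e-05, limma) in WT, or 6.62-fold. The lowest V2 value came from V2 cKO replicate 4 of the V2imm set.

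Bcl2l1 ran the other way. It was at 7.38, 7.77, 7.21 and 7.09 in V2 cKO arrays and at 7.50, 7.35 and 7.63 in V2 WT arrays, against 9.56 and 9.71 in DP cKO arrays and 9.85 and 9.25 in DP WT arrays. Every V2 array lay below every DP array, by at least the gap between 7.77 and 9.25. The V2 minus DP difference was -2.28 (SE 0.21, adjusted p = 2.13e-05, limma) in cKO, or 4.84-fold lower, and -2.09 (SE 0.23, adjusted p = 8.03e-05, limma) in WT, or 4.25-fold lower. In the order of group means the 2 genotypes of a population were neighbours for both Bcl2 and Bcl2l1, and their arrays overlapped. The Bcl2l1 means were 7.36 ± 0.30 in V2 cKO, 7.49 ± 0.14 in V2 WT, 9.64 ± 0.10 in DP cKO and 9.55 ± 0.42 in DP WT (SD).

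Fas, the death receptor, was at 7.46, 7.10, 6.90 and 7.31 in V2 cKO arrays and at 6.69, 6.61 and 6.84 in V2 WT arrays. It was at 9.57 and 9.51 in DP cKO arrays and at 9.40 and 9.57 in DP WT arrays. The V2 and DP arrays did not overlap, and among V2 arrays all 4 cKO values lay above all 3 WT values. The V2 minus DP difference was -2.35 (SE 0.18, adjusted p = 3.05e-06, limma) in cKO, or 5.08-fold lower, and -2.77 (SE 0.19, adjusted p = 1.14e-06, limma) in WT, or 6.84-fold lower. The means were 7.19 ± 0.24 in V2 cKO, 6.72 ± 0.12 in V2 WT, 9.54 ± 0.04 in DP cKO and 9.49 ± 0.12 in DP WT (SD). The V2 values lay close to the array medians, and no detection call per probe set was used here.

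**Figure D1:**
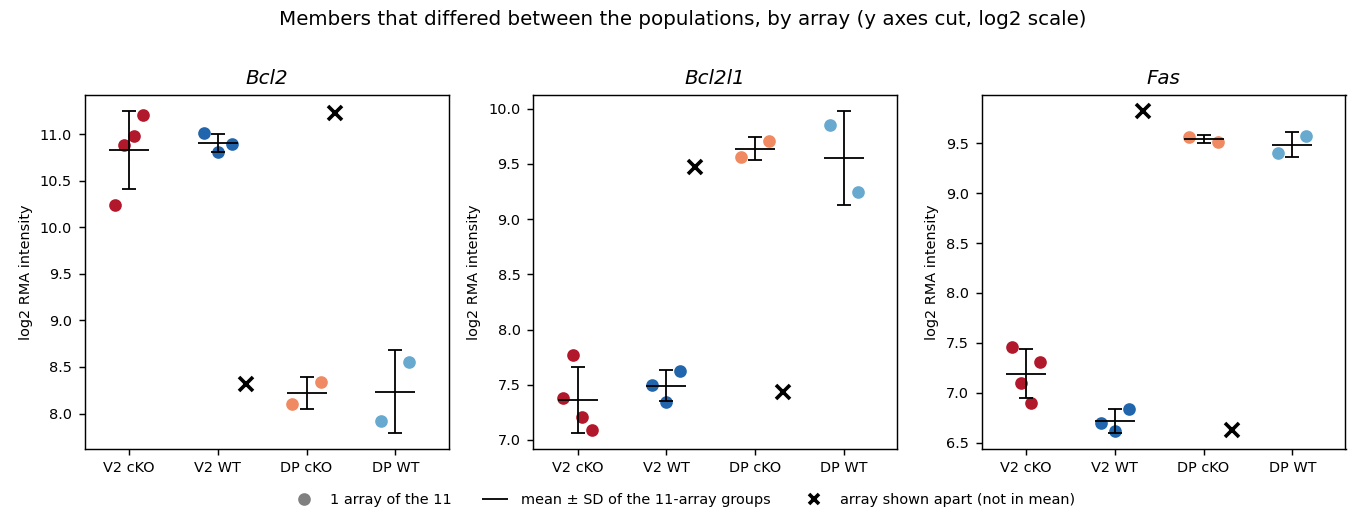
Log2 RMA intensity (y axis, not starting at 0) of Bcl2, Bcl2l1 and Fas by group (x axis), with 1 point per array, a bar for the mean ± SD of each group in the 11 arrays, and a cross for each array shown apart. Bcl2 lies above 10 in the V2 groups and below 9 in the DP groups, Bcl2l1 and Fas lie the other way round, and each cross sits with the population opposite to its label.

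The arrays shown apart followed their markers and not their labels for these 3 genes. DP cKO replicate 5 had Bcl2 at 11.23, above every V2 array kept, Bcl2l1 at 7.43, within the V2 range, and Fas at 6.62, also within it. V2 WT replicate 5 of the immV2 set had Bcl2 at 8.32 and Bcl2l1 at 9.48, within the DP ranges, and Fas at 9.82, above the 4 DP arrays kept. With all 13 arrays under their labels, none of the 9 members was called in either population comparison, against backgrounds of 0.0557% of genes in WT and 0.0354% in cKO. The V2 minus DP differences of cKO were then 1.61 for Bcl2, -1.54 for Bcl2l1 and -1.37 for Fas, with adjusted p from 0.489 to 0.67 (limma). Those of WT were 2.03 for Bcl2, -1.56 for Bcl2l1 and -1.99 for Fas, with adjusted p from 0.534 to 0.556. Within the V2imm set alone, V2 WT minus DP WT was 2.68 for Bcl2, -2.13 for Bcl2l1 and -2.83 for Fas. Within the immV2 set, which has 1 V2 WT array, it was 2.67 for Bcl2, -1.92 for Bcl2l1 and -2.64 for Fas.

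The other 6 measured members differed between the populations by at most 0.40 in size. Mcl1, an antiapoptotic gene that thymocytes need at several stages, was at 9.01 to 9.76 in V2 cKO and 9.12 to 9.95 in V2 WT arrays, against 9.61 and 10.02 in DP cKO and 9.85 and 9.95 in DP WT arrays. Its V2 minus DP difference was -0.35 (SE 0.24) in cKO and -0.38 (SE 0.26) in WT, with overlapping groups in both. Among BH3-only genes, Bcl2l11 differed by -0.02 (SE 0.24) between V2 cKO and DP cKO and by 0.39 (SE 0.26) between V2 WT and DP WT. Bbc3 differed by -0.07 (SE 0.16) in cKO and by -0.40 (SE 0.17, unadjusted p = 0.031, adjusted p = 0.269, limma) in WT. Pmaip1 differed by 0.04 (SE 0.17) in cKO and by -0.06 (SE 0.18) in WT. Both sat between 6.81 and 7.56 in all 11 arrays, near the array medians. Bak1, the effector, differed by -0.28 (SE 0.26) in cKO and by -0.14 (SE 0.28) in WT, and Apaf1, the apoptosome scaffold, by -0.17 (SE 0.19) and 0.01 (SE 0.20). The 95% interval of the V2 WT minus DP WT difference was -0.43 to 0.45 for Apaf1 and -0.74 to 0.47 for Bak1. The V2 WT and DP WT arrays did not overlap for 6 of 9 members, against 27.2% of all genes, and the V2 cKO and DP cKO arrays for 3 of 9, against 21.1%. Bcl2, Fas and Bcl2l1 had a larger SD over the 11 arrays than 99.5%, 99.4% and 99.1% of genes, and for Pmaip1 that share was 26.2%.

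**Figure D2:**
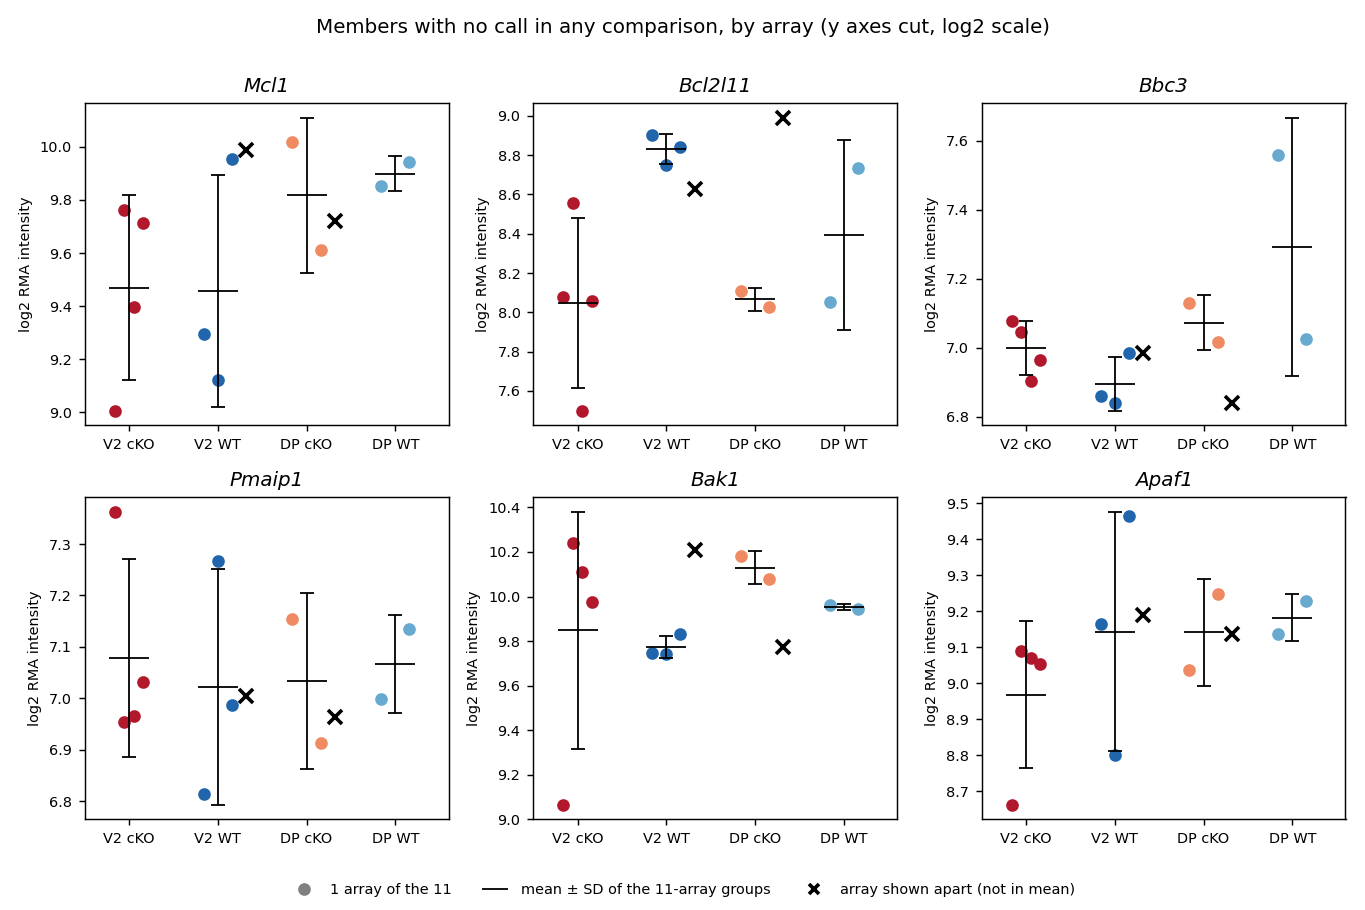
Log2 RMA intensity (y axes, not starting at 0) of the 6 members that were called in no comparison, by group (x axis), with 1 point per array, a bar for the mean ± SD of the 11 arrays, and crosses for the arrays shown apart. The 2 genotypes of a population overlap in every panel except V2 for Bcl2l11 and DP for Bak1, and V2 cKO replicate 4 of the V2imm set is the lowest V2 array for Mcl1, Bak1 and Apaf1. Bcl2l11 lies at 7.50 to 8.56 in the V2 cKO arrays and at 8.75 to 8.90 in the V2 WT arrays.

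The second comparison set V2 samples labelled cKO against those labelled WT, and the cKO samples include replicate 5 of the V2imm set, whose Sox4 level goes against its label. No member was called between V2 cKO and V2 WT, and neither was any gene of the 19752 (0% of genes, limma). At an unadjusted p under 0.05 there were 2 of 9 members, Bcl2l11 and Fas, against 758 genes or 3.84%. Leaving out 1 array in turn gave 0 to 44 genes, with 44 without V2 cKO replicate 5 of the V2imm set, 7 without V2 cKO replicate 4 and 5 without V2 WT replicate 3 of the immV2 set, and no member among them. The groups did not overlap for the same 2 members, against 3.45% of all genes. Bcl2l11, which encodes the BH3-only protein Bim, was at 8.08, 8.56, 7.50 and 8.06 in V2 cKO arrays, against 8.90, 8.75 and 8.84 in V2 WT arrays. All 4 cKO arrays were below all 3 WT arrays, and the cKO arrays spread over more than 1 log2 unit. The difference was -0.73 (SE 0.22, 95% interval -1.20 to -0.26, unadjusted p = 0.00496, adjusted p = 0.676, limma). It was also -0.73 with the 13 arrays as labelled, where V2 WT replicate 5 of the immV2 set, with DP markers and Bcl2l11 at 8.63, counts as WT. The difference in the 11 arrays was -0.51 within the V2imm set and -1.06 within the immV2 set. The 5 γδ markers summed to 5129 and 8104 in the V2imm and 6493 and 9497 in the immV2 cKO arrays, against 11980 and 12477 in the V2imm and 12905 in the immV2 WT arrays. By gene, Sox13, Etv5, Maf and Blk differed by -1.04, -0.80, -1.14 and -1.35 between V2 cKO and V2 WT, but Il7r by 0.04. None of these markers was called, and their part in the Bcl2l11 difference was not tested. Without the array labelled V2 cKO replicate 5 of the V2imm set, the Bcl2l11 difference was -0.91 (adjusted p = 0.108, limma). In DP arrays Bcl2l11 was at 8.11 and 8.03 in cKO and at 8.05 and 8.74 in WT, a difference of -0.33 (SE 0.28). This DP difference was -0.02 with the 13 arrays as labelled, where DP cKO replicate 5, with γδ markers, counts as cKO. That array had Bcl2l11 at 8.99, above every V2 array kept.

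Fas, whose values are given above, had a V2 cKO minus V2 WT difference of 0.48 (SE 0.16, 95% interval 0.14 to 0.82, unadjusted p = 0.00976, adjusted p = 0.909, limma), which did not pass the threshold. Within the V2imm set the difference was 0.62 and within the immV2 set 0.26. Without the array labelled V2 cKO replicate 5 of the V2imm set it was 0.53 (adjusted p = 0.182, limma). With the 13 arrays as labelled it was -0.30, since the V2 WT array at 9.82 then counts as WT. The summed DP markers were 1312 and 959 in the V2imm cKO arrays, which had Fas at 7.46 and 7.10, against 966 and 861 in the V2imm WT arrays. They were 1284 and 1226 in the immV2 cKO arrays, with Fas at 6.90 and 7.31, against 870 in the immV2 WT array. By gene, Cd8b1 differed by 0.63 and Cd8a by 0.24 between V2 cKO and V2 WT, while Cd4, Rag1 and Rag2 differed by 0.13, -0.09 and 0.05. None of these markers was called, and their part in the Fas difference was not tested. The 8 macrophage and dendritic cell markers summed to 1107 and, in replicate 5, 5182 in the V2imm and 916 and 628 in the immV2 cKO arrays. In WT they summed to 2625 and 2197 in the V2imm arrays and 556 in the immV2 array, and they were 582 to 686 in the DP arrays kept. In V2 cKO arrays Cd74 ran from 6.48 to 10.98, H2-Aa from 5.56 to 10.17 and Lyz2 from 5.57 to 9.39. Itgax ran only from 6.10 to 6.66 and Adgre1 from 5.00 to 5.76. In the array with 5182, Bcl2l11 was at 8.56, the highest of the V2 cKO group, and Fas at 7.10, between the other arrays. The 4 B cell markers summed to 640 and 821 in the V2imm and 1602 and 1572 in the immV2 cKO arrays, against 613 and 582 in the V2imm and 735 in the immV2 WT arrays. In DP arrays they summed to 1343 and 1457 in cKO, against 942 and 951 in WT. Of these 4 markers, Cd79b differed by 0.73 in V2 and 0.67 in DP (adjusted p = 0.618 and 1, limma), while Cd79a, Ms4a1 and Pax5 differed by 0.01, 0.04 and -0.03 in V2 and by 0.12, -0.39 and -0.11 in DP. The part of the macrophage and B cell markers in the Bcl2l11 and Fas differences was not tested.

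Bcl2 and Bcl2l1 differed less by genotype than within groups. The V2 cKO minus V2 WT difference was -0.14 (SE 0.22, 95% interval -0.61 to 0.34) for Bcl2 and -0.10 (SE 0.19, 95% interval -0.52 to 0.31) for Bcl2l1. With all 13 arrays they were 0.57 and -0.63, both with an adjusted p of 0.996. Among the other 5 measured members the differences ran from -0.23 for Apaf1 to 0.11 for Bbc3, and the 95% interval of each included 0. Mcl1 gave -0.05 (SE 0.22), Bak1 0.03 (SE 0.23) and Pmaip1 0.08 (SE 0.15). Bak1 had 1 low array, V2 cKO replicate 4 of the V2imm set at 9.06, beside 10.24, 10.11 and 9.98 in the other V2 cKO arrays and 9.75, 9.74 and 9.83 in V2 WT arrays. Without that array the difference of Bak1 was 0.35.

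In DP cells the same question could be asked with 2 arrays a group. No member was called between DP cKO and DP WT, against 5 genes or 0.0253% of genes (limma), and no member had an unadjusted p under 0.05, against 2.71%. Leaving out 1 array in turn gave 0 to 14 genes, with 14 without V2 cKO replicate 4 or replicate 5 of the V2imm set, 8 without V2 WT replicate 3 of the immV2 set, 3 without DP cKO replicate 3 and 0 without DP WT replicate 5, and no member among them. Groups did not overlap for 1 of 9 members, Bak1, against 29.8% of all genes. Bak1 was at 10.18 and 10.08 in DP cKO arrays, against 9.96 and 9.95 in DP WT arrays, a difference of 0.18 (SE 0.30). Bcl2 differed by -0.01 (SE 0.28), Bcl2l1 by 0.09 (SE 0.25), Fas by 0.05 (SE 0.20) and Mcl1 by -0.08 (SE 0.28). Bbc3 was at 7.13 and 7.02 in DP cKO arrays, against 7.56 and 7.03 in DP WT arrays, a difference of -0.22 (SE 0.18) that was 0.046 without DP WT replicate 3. The 95% interval was -0.39 to 0.49 for Fas, -0.63 to 0.60 for Bcl2 and -0.45 to 0.62 for Bcl2l1, so differences of these sizes could not be told from none.

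The genotype difference itself was compared between V2 and DP cells. No member and no gene was called (0% of genes), and no member had an unadjusted p under 0.05, against 1.88% of genes. The V2 minus DP difference of the cKO effects was 0.43 (SE 0.26, adjusted p = 1, limma) for Fas and -0.40 (SE 0.35, adjusted p = 1, limma) for Bcl2l11. Leaving out 1 array in turn moved the Bcl2l11 value to between -0.75, without DP WT replicate 5, and -0.06, without DP WT replicate 3, and the Fas value to between 0.30 and 0.57. The difference of the effects was -0.12 (SE 0.36) for Bcl2 and -0.19 (SE 0.31) for Bcl2l1. The Fas and Bcl2l11 differences in V2 cells were thus not shown to be particular to them. With the 13 arrays as labelled, no member and 0% of genes were called in V2 cells, in DP cells or for the difference.

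**Figure D3:**
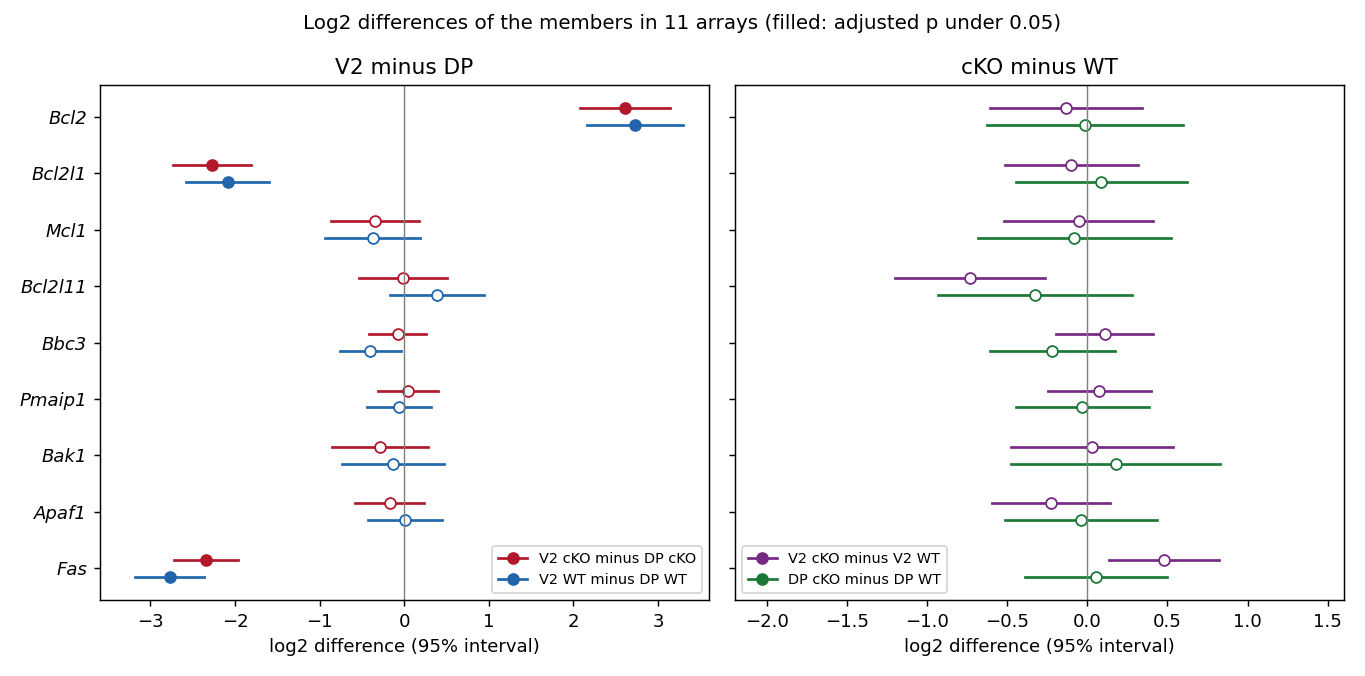
Log2 differences (x axis) of the 9 measured members (y axis) with 95% intervals from the fit over 11 arrays, V2 minus DP in cKO and WT mice on the left and cKO minus WT in V2 and DP cells on the right, with filled points for an adjusted p under 0.05. Bcl2, Bcl2l1 and Fas stand apart from 0 on the left (2.61 and 2.73, -2.28 and -2.09, -2.35 and -2.77), and no point on the right is filled.

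The wider pathway was described from 4 lists. Of 17 other Bcl2 family genes listed, 14 were measured, of which 1 was higher and 2 were lower in V2 cKO than in DP cKO, and 1 was higher and 1 lower in V2 WT than in DP WT, with 5.45% of all genes called in cKO and 4.87% in WT, the background for each list here. Bcl2l14, a Bcl2 relative known as Bcl-G, was higher by 1.54 (adjusted p = 0.000428, limma) in cKO and by 1.72 (adjusted p = 0.000275) in WT. Its levels were 7.80 to 8.22 in V2 cKO and 7.72 to 8.41 in V2 WT arrays, against 6.39 in both DP cKO arrays and 6.25 to 6.56 in DP WT arrays. Bmf, a BH3-only gene, was lower by 1.16 (adjusted p = 0.0203) in cKO, with a mean of 8.32 in V2 cKO against 9.49 in DP cKO. In WT it was lower by 1.20 (adjusted p = 0.0278), with a mean of 8.20 in V2 WT against 9.40 in DP WT. Bid, the BH3-only gene that links death receptors to mitochondria, had -0.83 (adjusted p = 0.0246) in cKO and -0.72 (adjusted p = 0.073) in WT. The median over the list was -0.17 in cKO and -0.16 in WT, beside -0.01 and -0.02 over all genes.

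The list of other death receptor genes held 17 symbols, of which 15 were measured. In V2 cKO, 2 were higher and 1 lower than in DP cKO. In V2 WT, 3 were higher and 1 lower than in DP WT. The list's median was 0.29 in cKO and 0.15 in WT. Tnfsf10, the ligand TRAIL, was higher by 1.13 (adjusted p = 0.0109, limma) in cKO and by 1.66 (adjusted p = 0.00117) in WT. Tnfrsf21, a receptor with a death domain, was higher by 1.05 (adjusted p = 0.00593) in cKO and by 1.16 (adjusted p = 0.00491) in WT. Casp8, the protease that Fas recruits, had 0.67 (adjusted p = 0.127) in cKO and 0.94 (adjusted p = 0.0363) in WT. Tnfrsf1a, a receptor for tumour necrosis factor, was lower in V2 cells by 0.71 (adjusted p = 0.0421) in cKO and by 0.79 (adjusted p = 0.0348) in WT.

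None of the 17 measured of 19 other apoptosome and caspase genes was called between the populations, with medians of -0.09 in cKO and 0.04 in WT. Of 22 known upstream regulators listed, 18 were measured, of which 2 were higher and none lower in both genotypes, with medians of 0.20 in cKO and 0.19 in WT. Il7r, the receptor chain through which interleukin-7 is known to sustain Bcl2, averaged 10.20 ± 0.59 in V2 cKO and 10.04 ± 0.28 in V2 WT arrays, against 6.06 ± 0.06 in DP cKO and 6.19 ± 0.08 in DP WT arrays (SD, n = 4, 3, 2 and 2). The V2 minus DP difference of Il7r was 4.14 (adjusted p = 1.08e-07, limma) in cKO and 3.97 (adjusted p = 3.53e-07, limma) in WT, and Il7r is also one of the γδ markers named above. Nr4a3, a nuclear receptor induced by antigen receptor signals, differed by 1.20 (adjusted p = 0.000545) in cKO and 1.10 (adjusted p = 0.00179) in WT. With the 13 arrays as labelled, none of these pathway genes was called.

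In the cKO against WT comparisons no gene of the 4 lists was called in V2 or DP cells. Tnfrsf21 had the smallest p of the death receptor list in both. It averaged 8.16 ± 0.31 in V2 cKO against 9.01 ± 0.24 in V2 WT arrays (SD, n = 4 and 3), a difference of -0.89 (SE 0.18, adjusted p = 0.169, limma), with -0.81 in the V2imm set and -0.999 in the immV2 set. In DP arrays it averaged 7.11 in cKO against 7.89 in WT, a difference of -0.78 (SE 0.23, adjusted p = 0.937, limma). Groups did not overlap in either population, against 3.45% of all genes in V2 and 29.8% in DP. Beside this, the γδ markers summed to 5129 to 9497 in V2 cKO, against 11980 to 12905 in V2 WT. Il7r among them differed by only 0.04, and the part of these markers in the Tnfrsf21 difference was not tested. With the 13 arrays as labelled the Tnfrsf21 differences were -0.46 in V2 and 0.07 in DP. In V2 cells the gene with the smallest p was Bnip3 (0.30) in the Bcl2 family list, Casp2 (-0.42) among caspases and Myb (-0.51) among regulators, with an adjusted p of 0.903 or above (limma). In DP cells they were Bcl2l15 (0.22), Casp6 (-0.69) and Stat5a (0.29), each with an adjusted p of 1 (limma).

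**Figure D4:**
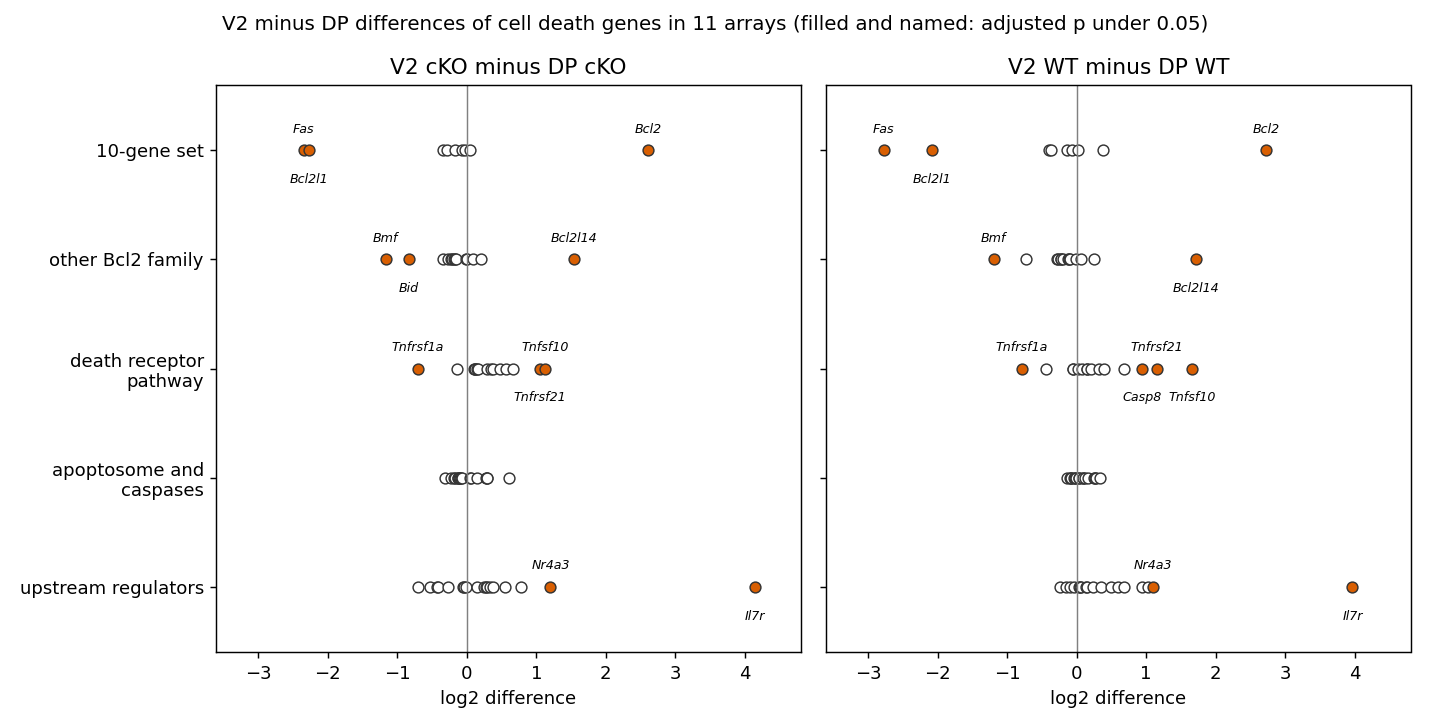
Log2 differences V2 minus DP (x axis) of the measured genes of the 10-gene set and the 4 pathway lists (rows), 1 point per gene, in cKO on the left and WT on the right, with filled and named points for an adjusted p under 0.05 in 11 arrays. Il7r (4.14 and 3.97) and Bcl2 (2.61 and 2.73) lie farthest to the right, and Fas and Bcl2l1 farthest to the left. No gene of the apoptosome and caspase list is filled.

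Genes with the profile most like each of the 3 members were found by the root mean square distance between log2 profiles over the 11 arrays, each centred on its mean. For Bcl2 they were P2rx7 (0.19), Pde7a (0.19), Fam102a (0.22) and Tox2 (0.30). P2rx7, an ATP-gated channel gene, averaged 10.02 in V2 cKO and 10.17 in V2 WT, against 7.31 in DP cKO and 7.39 in DP WT. For Bcl2l1 they were Chrna9 (0.21), Dnajb4 (0.23), Slc37a2 (0.24) and P2rx1 (0.26), and for Fas they were Nsg2 (0.24), P2rx1 (0.29), Sytl3 (0.29) and Plxdc1 (0.31). P2rx1 was near both, at 6.27 in V2 cKO and 6.32 in V2 WT, against 8.98 in DP cKO and 8.58 in DP WT. These distances describe the same 11 arrays, in which the 2 populations make most of the spread.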

How the data were processed

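Sorted mouse thymocytes gave RNA that was labelled for Affymetrix gene arrays, per the labels' protocols, and each sample has 1 array. The deposited values are probe set intensities, made by the authors with RMA and Affymetrix Power Tools (versions not given), per the submitters' processing notes. RMA corrects background, normalises arrays and summarises probes, and compresses differences of dim probe sets. The scale was read as linear from the values (6.16 to 23800), and log2 was taken here. Precision is set by the number of arrays, which carry no read depth. The platform annotation gave 1 gene symbol to 21425 of 24922 probe sets and several to 1399, and did not list 2098. Only the first kind was tested, the brightest standing for each of 921 genes with several, which left 19752 genes. Of the probe sets with 1 symbol, 21347 matched the RefSeq table by gene ID, and 0 symbols changed. Pearson r between arrays was 0.945 to 0.994, and no pair of arrays was identical.

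Groups came from the titles. V2imm titles write the knockout without naming Sox4, and it was taken to be the Sox4 knockout. The fit used lmFit and eBayes of limma 3.58.1 (R 4.3.3), with a trend on intensity, and held 4 group means and a covariate for the V2 title set over 11 arrays, with two-sided tests, Benjamini-Hochberg adjustment over all genes and a threshold of 0.05. It left out 2 arrays that carry the other population's markers, and all 13 arrays as labelled were an alternative. The fit was tested on simulated data. The members, the lists and the choice of the 2 arrays were made with earlier results of these data known. Named genes were the members, up to 3 called genes per direction of each list and comparison with the largest difference, or the smallest p where none was called in a cKO comparison, and the 4 most alike profiles. Fits within a title set were added after seeing the data. Promoter windows are RefSeq's for GRCm38.p6. Python 3.11.15, pandas 2.3.3 and matplotlib 3.10.9 were used.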

Additional observations from a re-analysis of the deposited data

Results flagged for a closer look

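In groups of 4 arrays, 7 gene values had 1 array set off from the other 3 by more than Dixon's 95% limit. Of these, 5 come from V2 WT replicate 5 of the immV2 set, put back among the V2 WT arrays as labelled. It was the lowest for Bcl2 at 8.32, for Il7r at 5.96 and for Nr4a3 at 6.13, and the highest for Bcl2l1 at 9.48 and for Fas at 9.82. This is the array already shown apart for its DP markers Cd4 and Rag1, and the 5 genes differ between V2 and DP cells, so these 5 are 1 array and not separate events. In V2 cKO, replicate 4 of the V2imm set was the lowest for Apaf1 at 8.66, beside 9.05 to 9.09 in the other 3 arrays, and for Casp8 at 11.27. Chance gives about 1 such value in 20 groups, and 24 genes were looked at in V2 cKO. The same array had the lowest Bcl2, Mcl1 and Bak1 of the V2 cKO group, at 10.24, 9.01 and 9.06. The cause was not tested.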

How the results depend on the processing

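Over 45 member results (9 members in 5 comparisons), 21 other settings gave 918 values. Of these, 897 were counted as the same, and among them 60 uncalled ones turned sign but moved by at most 1 SE from the main value. Another 15 uncalled ones turned sign, moved by more than 1 SE and stayed uncalled, and 6 calls were lost. Part of the 918 differences could not move, so the count of the same ones overstates stability. Leaving out an array of 1 population cannot move the genotype difference of the other. Averaging the probe sets of a gene cannot move members with 1 probe set, and dropping the intensity trend changes only the SE and p. All 6 lost calls came with the 13 arrays as labelled, where the V2 minus DP differences of WT were 2.03 for Bcl2, -1.56 for Bcl2l1 and -1.99 for Fas and those of cKO 1.61, -1.54 and -1.37, so 0 members were called in each. In the 19 other settings that could be run for these comparisons all 3 stayed called, with V2 cKO minus DP cKO at 2.48 to 2.78 for Bcl2, -2.41 to -2.16 for Bcl2l1 and -2.45 to -2.23 for Fas, and V2 WT minus DP WT at 2.41 to 3.04, -2.39 to -1.79 and -2.92 to -2.69. With the 13 arrays, cKO minus WT turned to 0.57 for Bcl2 and -0.30 for Fas in V2 cells and to 0.99 for Bcl2, -0.65 for Bcl2l1 and -0.92 for Fas in DP cells.

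Replicate numbers were tried as a replicate block in place of the title set. Same-numbered V2 arrays correlated at 0.273, -0.108 and 0.524 (deviations from group means). Differently numbered V2 arrays of the same title set correlated at 0.143, 0.498 and 0.599, so the numbers were not taken as pairs. In DP the same-numbered value was 0.178, which cannot tell, since with 2 arrays a group the deviations mirror each other. With the block, 35 genes were called in V2, no member among them. Of the DP arrays kept, only replicate 3 has both genotypes, so the blocked DP differences rest on the arrays of that number alone. Bcl2l1 and Bcl2l11 in DP then turned to -0.29 and 0.057, and Bcl2l1 in the difference of effects to 0.25. A block cannot give V2 against DP, since each block lies within a population. Counts of all genes moved more than the members. Between V2 cKO and V2 WT, 13 were called after quantile normalisation and 8 without dim genes. Between DP cKO and DP WT the count was 0 with 13 arrays, 3 without the title set, 9 after quantile normalisation, 0 with the compared groups alone and 0 with Xist as a covariate. Between V2 WT and DP WT it was 11 with 13 arrays and 596 without the title set. Between V2 cKO and DP cKO it was 7 with 13 arrays, 637 without the title set, 579 with the compared groups alone and 685 with Xist.

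Leaving out 1 of the 11 arrays in turn gave 0 to 44 genes in V2, 0 to 14 in DP, 0 to 4 for the difference, 477 to 1581 for V2 WT against DP WT and 480 to 1632 for V2 cKO against DP cKO. A group left with 1 array was assumed to vary like the others. The 44 genes came without V2 cKO replicate 5 (V2imm), and the highest population counts came without V2 cKO replicate 4 (V2imm). Some uncalled members then turned sign with a move of more than 1 SE from the main value. In V2 these were Bak1 (-0.23 to 0.35), Bcl2l1 (-0.26 to 0.15) and Mcl1 (-0.30 to 0.18). In DP they were Bbc3 (-0.48 to 0.046), Bcl2 (-0.33 to 0.30), Bcl2l1 (-0.21 to 0.39) and Bcl2l11 (-0.67 to 0.016). Other uncalled members turned sign with a smaller move. Bcl2l11 in V2 kept -0.91 to -0.51 and Fas 0.35 to 0.62, with adjusted p of 0.108 and 0.182 at the lowest. The causes were not tested.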
